A study of Homo sapiens with 24 samples.

Results

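The endoplasmic reticulum (ER) folds proteins that enter the secretory pathway, and 35 genes of its chaperones and of the unfolded protein response (UPR) were followed in U251 cells exposed to G-1. The members were named from general knowledge of the pathway, with earlier results of these data known, and each probe was assigned by the RefSeq transcript it targets. The rule itself uses no measured value. The array carried 48 probes for the 35 genes, of which 45 could be tested, and all 35 genes had at least 1 tested probe, among 14235 genes with a symbol. A probe was tested when some group had all 4 of its arrays well above background. On this measure 34 members were detected on all 24 arrays, and ERO1B was detected on 20, with 2 of 4 arrays in each G-1 1 µM group. Each gene is given by its brightest tested probe.

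U251 is an established human glioblastoma (GBM) cell line, and G-1 is a synthetic agonist of the G protein-coupled estrogen receptor (GPER). All cells were deprived of steroid hormones in charcoal-stripped serum before exposure, and the 6 groups of 4 independent biological replicates were then kept with DMSO (0.1% in the labels), G-1 at its IC50 for this line, or G-1 1 µM, each for 24 h or 72 h. RNA was measured on 1-colour Agilent arrays, and every value below is a log2 intensity minus the 75th percentile of its array, so that levels can be compared between arrays for 1 probe but not between genes. Since the cells were measured in bulk and scaled within each array, less RNA per cell and fewer cells cannot be told apart. The 9 astroglial or glioma markers examined, such as GFAP and SOX2, were detected on all 24 arrays, and the 3 leukocyte and 3 epithelial markers on none.

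The third slide, scanned in a second session, carried G-1 1 µM on all of its 8 arrays, whereas DMSO and G-1 IC50 shared the first and the second slide. At a single duration, an effect of G-1 1 µM therefore cannot be told apart from an effect of slide or session. The share of spots above background was 41.1% to 44.5% for the 16 arrays scanned first and 38.0% to 40.7% for the 8 scanned second. The difference between the 72 h and the 24 h effect holds no constant offset of the third slide or its session, because both G-1 1 µM groups shared them. An offset between the first and the second slide could remain in part. DMSO 24 h had 3 arrays on the first and 1 on the second, and DMSO 72 h had 2 on each.

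In unstressed cells the chaperone BiP, encoded by HSPA5, holds 3 ER membrane sensors inactive: PERK (EIF2AK3), IRE1 (ERN1) and ATF6. When unfolded proteins accumulate, IRE1 splices the XBP1 transcript, ATF6 is cleaved to a free transcription factor, and PERK lowers translation while it favours ATF4. XBP1 and ATF6 then raise chaperones, disulfide isomerases, the degradation machinery that returns misfolded proteins to the cytosol, and the translocon. The arrays measured transcript levels, and not the splicing of XBP1, the cleavage of ATF6 or the activity of PERK.

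XBP1 and ATF6 act through short promoter sequences, which are shown here because the members that hold them moved in both directions at 72 h. RefSeq promoter windows (GRCh38.p14), from 250 bases before the start to 50 after it, were found for 31 of the 35 members. DERL1, DERL3, PDIA3 and SEC24D had none. Both strands were searched. The ER stress element (ERSE) is CCAAT and CCACG with 9 bases of any kind between them. It lay in the windows of 8 of the 31 members and of 0.0916% of all 27305 genes with a window. The second element (ERSE-II), ATTGG and CCACG with 1 base between them, lay in those of 3 members and of 0.0696% of all genes. HYOU1 alone also held TGACGTGG, the core of the UPR element, which overlapped its more distant ERSE-II and lay in the windows of 0.927% of all genes. TGATGCAAT, a site for ATF4 with its partners, lay in the windows of 0 of the 31 members and of 0.293% of all genes. The elements were first described in some of these same genes, so their presence is background. The windows below run 5′ to 3′ along the gene's own strand, with the element in capitals, which read as its reverse complement where it lies on the opposite strand.
HSPA5, chr9:125241371-125241429, minus strand, ERSE from 66 to 48 bases before the start: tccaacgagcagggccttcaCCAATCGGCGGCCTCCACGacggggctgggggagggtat
HSP90B1, chr12:103930301-103930359, plus strand, the nearer of 2 ERSEs, from 89 to 71 bases before the start: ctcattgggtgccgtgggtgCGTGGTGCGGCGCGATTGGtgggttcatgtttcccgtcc
CALR, chr19:12938364-12938422, plus strand, ERSE from 225 to 207 bases before the start: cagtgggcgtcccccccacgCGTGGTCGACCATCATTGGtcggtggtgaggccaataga
CRELD2, chr22:49918534-49918592, plus strand, ERSE from 80 to 62 bases before the start: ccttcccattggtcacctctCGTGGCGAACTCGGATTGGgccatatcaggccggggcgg
PDIA6, chr2:10812833-10812891, minus strand, ERSE from 86 to 68 bases before the start: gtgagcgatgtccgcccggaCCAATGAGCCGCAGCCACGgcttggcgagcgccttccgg
XBP1, chr22:28800583-28800641, minus strand, ERSE from 52 to 34 bases before the start: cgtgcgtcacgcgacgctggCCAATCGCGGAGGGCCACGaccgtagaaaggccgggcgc
HERPUD1, chr16:56932005-56932055, plus strand, ERSE-II from 117 to 107 bases before the start: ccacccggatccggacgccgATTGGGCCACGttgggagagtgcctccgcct
HYOU1, chr11:119057254-119057304, minus strand, the nearer of 2 ERSE-IIs, from 79 to 69 bases before the start: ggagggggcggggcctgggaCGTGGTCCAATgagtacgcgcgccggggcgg
SDF2L1, chr22:21642094-21642144, plus strand, ERSE-II from 188 to 178 bases before the start: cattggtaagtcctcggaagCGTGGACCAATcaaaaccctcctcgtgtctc

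The first question was how far the module moved with dose and duration. With G-1 IC50, 0 of 35 members passed the test at 24 h (limma, adjusted p under 0.05 over all tested probes) and 0 of 35 at 72 h, where 0.246% and 0.885% of all genes did. At an unadjusted p under 0.05, 7 members were counted at 24 h and 2 at 72 h, beside 664 and 1366 of all 14235 genes. The G-1 IC50 and DMSO arrays did not overlap for 3 members at 24 h and for 2 at 72 h, where they did not for 2.75% and 7.54% of all genes. With G-1 1 µM, 8 members were called at 24 h, 2 higher and 6 lower, whereas 20% of all genes were called higher and 10.5% lower (30.6% in all). At 72 h, 22 were called, 17 higher and 5 lower, against 35.3% of all genes higher and 30.9% lower (66.2% in all), so that the share of members called was close to that of all genes. The split into higher and lower depended on the scaling: 14 and 7 with quantile normalization and 9 and 6 with the 50th percentile at 72 h, and 1 and 8 with quantile normalization at 24 h. Without any threshold, the median log2 fold change of the 35 was -0.02 at 24 h and 0.14 at 72 h, where the medians of all genes were 0.04 and 0.03.

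Changes were small. A fold change above 2 was passed by 1 member at 72 h, ERO1A, whereas 12.3% of all genes passed it, and by none at 24 h, where the largest fold was 1.52 for ERO1B and 1.69% of all genes passed. The G-1 1 µM and DMSO arrays did not overlap for 10 of 35 members at 24 h (30.3% of all genes) and for 19 at 72 h (58.7%). HSPA5 and HSP90B1 were lower at both durations, SYVN1 and SEC61A1 were higher at both, 18 members were called at 72 h and not at 24 h, 4 at 24 h and not at 72 h, and 9 at neither. These joint patterns were not counted over all genes, of which 30.6% were called at 24 h and 66.2% at 72 h. The number called at 72 h alone is therefore not a trait of the module.

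**Figure D1:**
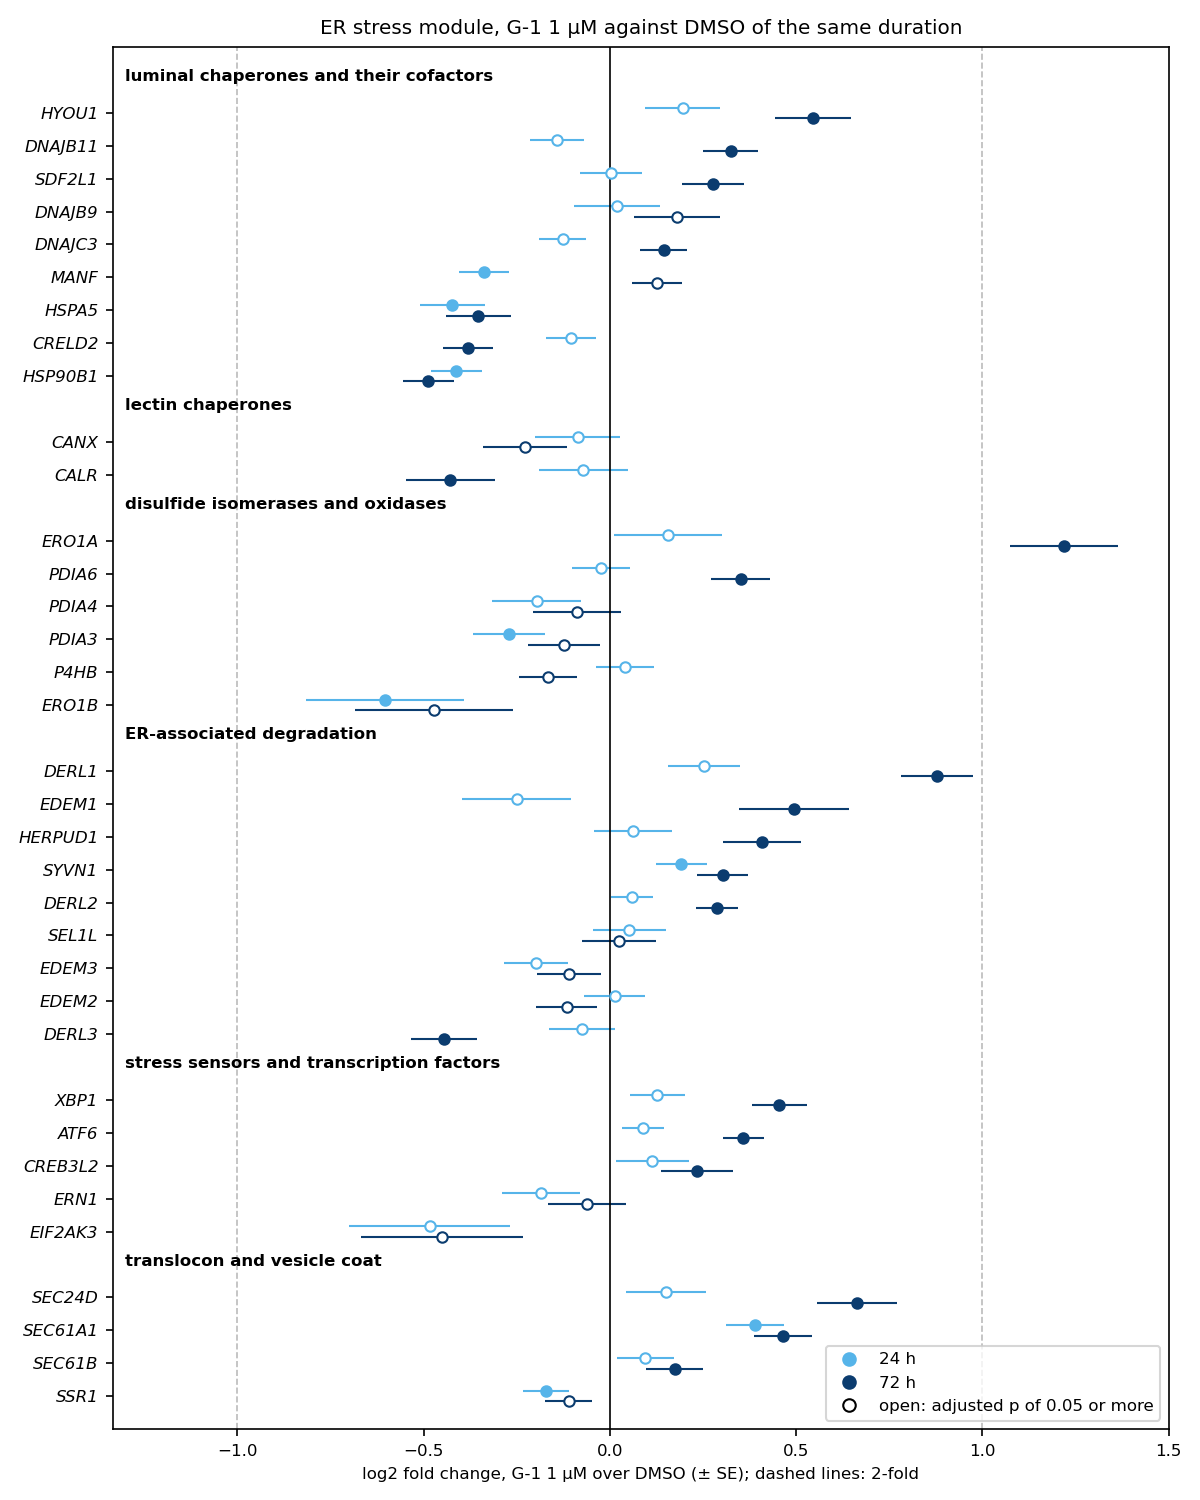
Log2 fold change of the 35 members at G-1 1 µM over DMSO of the same duration, by role. Points are limma estimates at 24 h (light) and 72 h (dark), bars are SE, and open points had an adjusted p of 0.05 or more. ERO1A at 72 h lies alone beyond the dashed 2-fold line, and HSPA5, HSP90B1, CRELD2, CALR and DERL3 are the filled 72 h points below 0.

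Among the luminal chaperones, the BiP and GRP94 transcripts fell while several of their cofactors rose at 72 h. HSPA5, which encodes BiP, read 4.69, 4.46, 4.87 and 4.76 on the DMSO 24 h arrays and 4.30, 4.14, 4.42 and 4.23 on the G-1 1 µM 24 h arrays. At 72 h it read 4.47, 4.53, 4.47 and 4.54 with DMSO and 4.28, 4.13, 4.07 and 4.13 with G-1 1 µM. The groups did not overlap at either duration. Its log2 fold change was -0.42 ± 0.09 (SE, adjusted p = 0.00146) at 24 h and -0.35 ± 0.09 (adjusted p = 0.00147) at 72 h. With G-1 IC50 it read 4.20, 4.46, 4.60 and 4.40 at 24 h and 4.50, 4.61, 4.45 and 4.55 at 72 h. The differences from DMSO were -0.28 at 24 h (adjusted p = 0.511) and 0.02 at 72 h.

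HSP90B1, which encodes GRP94, the HSP90 of the ER lumen, followed the same course. Its spread between replicates was narrower than that of HSPA5 at 24 h and wider at 72 h. The DMSO arrays read 8.24, 8.21, 8.19 and 8.27 at 24 h and 8.21, 8.14, 8.14 and 8.27 at 72 h. The G-1 1 µM arrays read 7.82, 7.78, 7.83 and 7.83 at 24 h and 7.90, 7.50, 7.61 and 7.78 at 72 h. All 8 treated arrays lay below all 8 controls, with log2 fold changes of -0.41 ± 0.07 (adjusted p = 0.000293) and -0.49 ± 0.07 (adjusted p = 4.06e-06). The G-1 IC50 arrays at 24 h, at 7.90, 8.05, 7.96 and 7.98, lay between both groups and below all DMSO arrays (exact permutation p = 0.0286, two-sided, the smallest that 4 against 4 arrays allow), although the adjusted p was 0.285. At 72 h they read 8.26, 8.24, 8.10 and 8.28, among the DMSO arrays.

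The other 7 luminal chaperones and cofactors split. HYOU1 (GRP170), a nucleotide exchange factor of BiP, rose by 0.55 ± 0.10 at 72 h (adjusted p = 9.09e-05), and the J-domain proteins DNAJB11 and DNAJC3 by 0.32 ± 0.07 and 0.14 ± 0.06. The DNAJB11 call was lost with the 50th percentile (adjusted p = 0.0962). The DNAJC3 call (adjusted p = 0.0485) was lost with the other scalings and without DMSO 72 h replicate 1, 3 or 4 or G-1 1 µM 72 h replicate 1, 2 or 4. SDF2L1, which works with DNAJB11, rose by 0.28 ± 0.08. DNAJB9 (ERdj4), a classical target of XBP1, was not called: at 24 h it read 3.93, 3.93, 4.09 and 4.23 with DMSO and 3.88, 3.95, 4.26 and 4.17 with G-1 1 µM, and at 72 h 3.81, 3.92, 3.69 and 4.04 against 4.13, 3.99, 4.10 and 3.96. Its differences of 0.02 and 0.18 were within the spread between replicates. CRELD2, a secreted ER stress protein, moved the other way. It read 5.88, 5.97, 5.86 and 5.98 with DMSO at 72 h against 5.46, 5.58, 5.52 and 5.60 with G-1 1 µM (-0.38 ± 0.07, adjusted p = 5.38e-05).

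MANF, a small secreted protein that binds BiP, was low with both doses at 24 h and not at 72 h. At 24 h the DMSO arrays read 7.64, 7.57, 7.70 and 7.62, those of G-1 IC50 7.20, 7.37, 7.31 and 7.36, and those of G-1 1 µM 7.29, 7.30, 7.35 and 7.24. Neither treated group overlapped with DMSO. The log2 fold change was -0.32 ± 0.07 for G-1 IC50, just above the threshold (adjusted p = 0.0538), and -0.34 ± 0.07 for G-1 1 µM (adjusted p = 0.00113). G-1 IC50 and DMSO shared 2 slides, and the difference was -0.31 within the first and -0.29 within the second. The first held 2 G-1 IC50 and 3 DMSO arrays of 24 h, and the second 2 and 1, so that the latter rests on a single DMSO array. At 72 h the groups overlapped, from 7.43 to 7.55 with DMSO, 7.50 to 7.72 with G-1 IC50 and 7.44 to 7.77 with G-1 1 µM.

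**Figure D2:**
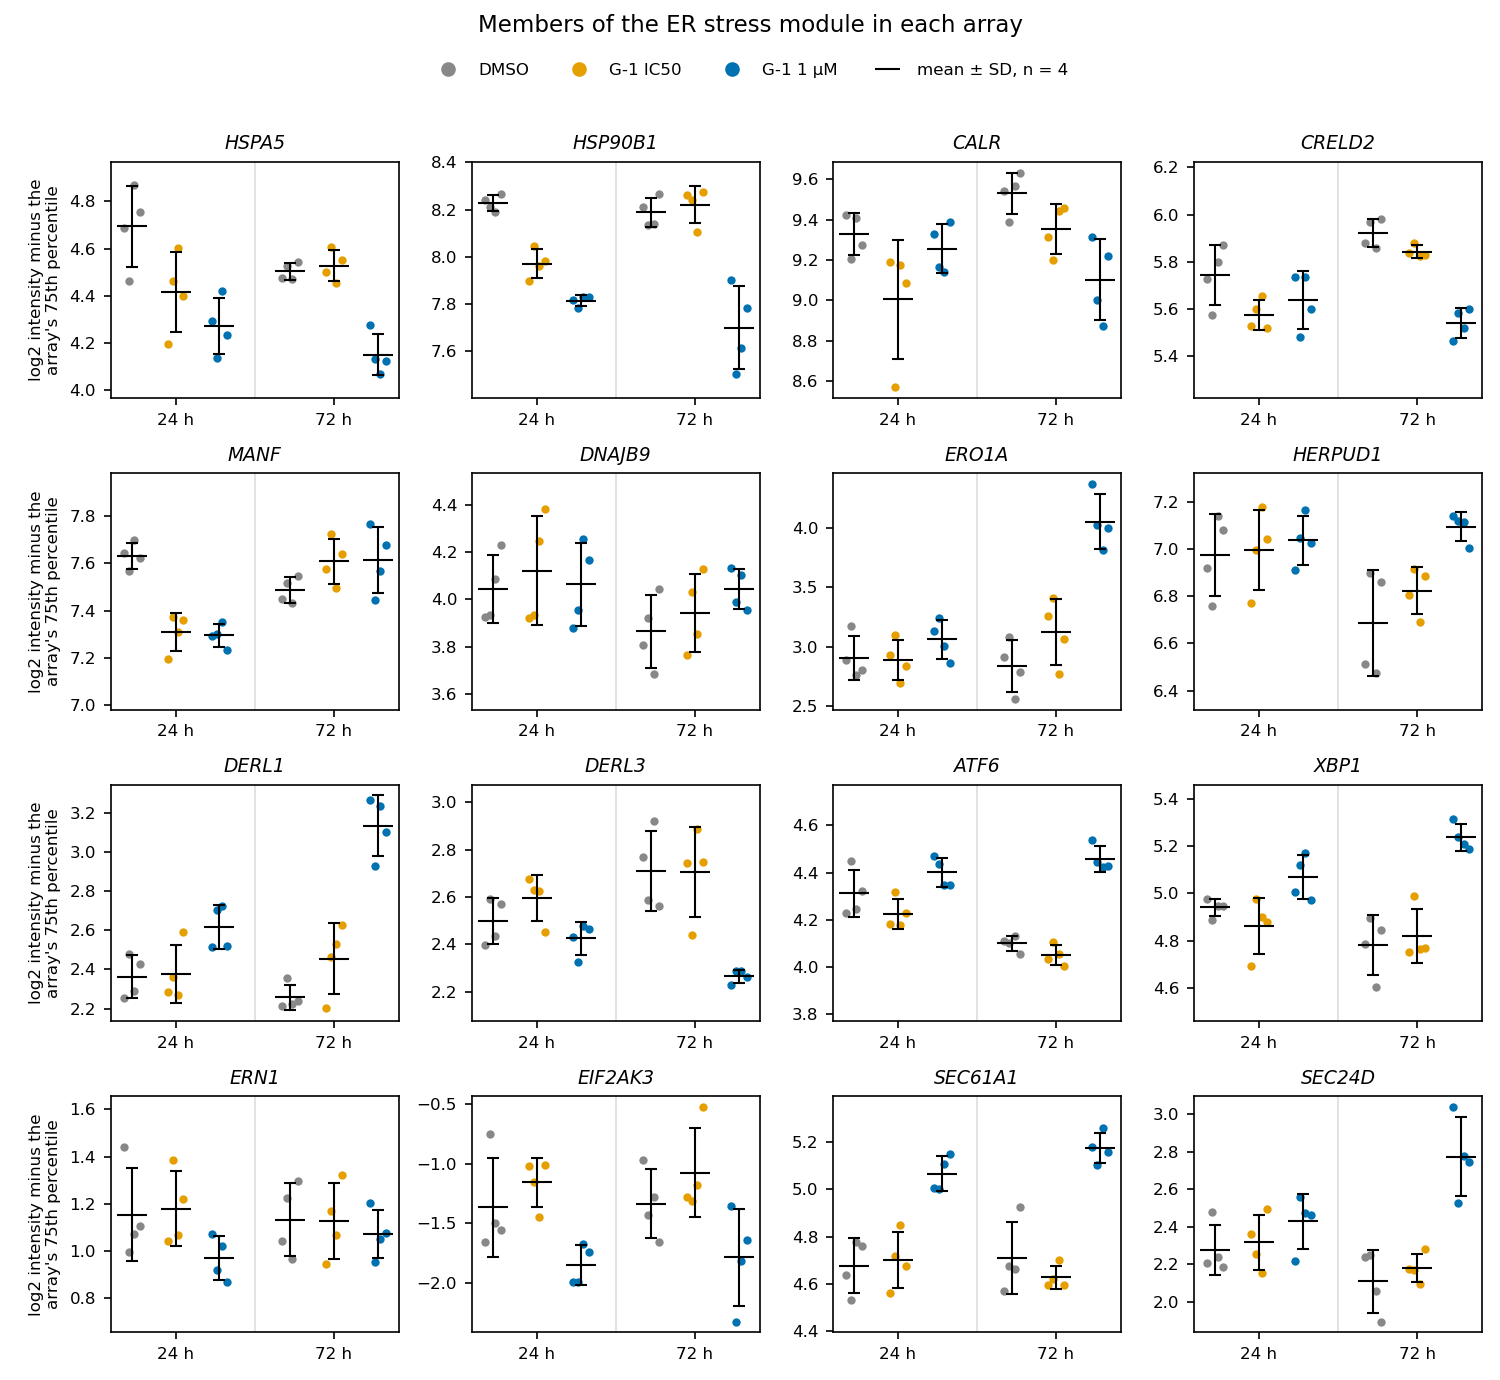
Log2 intensity minus the 75th percentile of the array for 16 members in each of the 24 arrays, in grey for DMSO, orange for G-1 IC50 and blue for G-1 1 µM, at 24 h (left of each panel) and 72 h (right). Black marks are the mean ± SD of 4 arrays. HSP90B1 is lower on all 8 G-1 1 µM arrays, and ERO1A and DERL1 stand higher on the 4 arrays of G-1 1 µM 72 h.

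Calreticulin and calnexin are the lectin chaperones that hold newly glycosylated proteins. CALR read 9.54, 9.39, 9.57 and 9.63 with DMSO at 72 h and 9.31, 9.0, 8.87 and 9.22 with G-1 1 µM, with no overlap. It fell by 0.43 ± 0.12 (adjusted p = 0.00384), whereas at 24 h the difference was -0.07 (adjusted p = 0.685). The brighter CANX probe gave -0.23 at 72 h (adjusted p = 0.0833) and its dimmer probe 0.33 (adjusted p = 0.0128), so that the direction for CANX was not settled.

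Disulfide bonds are made in the ER by protein disulfide isomerases, which are reoxidized by the ERO1 oxidases. ERO1A had the largest change of the module. It read 2.91, 3.08, 2.56 and 2.79 with DMSO at 72 h, 3.26, 3.41, 2.77 and 3.07 with G-1 IC50, and 4.37, 4.03, 3.82 and 4.00 with G-1 1 µM, where all 4 arrays lay above the other 8. The log2 fold change over DMSO was 1.22 ± 0.14, or 2.33-fold (adjusted p = 3.71e-07). At 24 h the DMSO arrays read 2.89, 3.17, 2.76 and 2.80 and the G-1 1 µM arrays 3.13, 3.24, 3.00 and 2.87, a difference of 0.16 that was not called (adjusted p = 0.438). ERO1A is also in the study's own gene lists from these arrays.

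Its paralogue ERO1B moved the other way near the detection limit. With DMSO at 24 h it read -2.46, -1.93, -2.34 and -2.25, and with G-1 1 µM -3.43, -2.53, -2.56 and -2.88, where 2 of the 4 arrays were above background. The difference of -0.60 ± 0.21 was called (adjusted p = 0.0369), but not with quantile normalization, the 50th percentile or the normexp background correction, where its size fell to as little as -0.04, nor without DMSO 24 h replicate 2, 3 or 4 or G-1 1 µM 24 h replicate 1 or 4. At 72 h it was -0.47 (adjusted p = 0.057). Among the isomerases, PDIA6 rose by 0.35 ± 0.08 at 72 h (adjusted p = 0.000589), while PDIA4 and P4HB were not called, with -0.09 and -0.17. The PDIA6 call was lost with the 50th percentile (adjusted p = 0.0628). PDIA3 was lower at 24 h (-0.27 ± 0.10, adjusted p = 0.0387), a call lost with the 50th percentile and without DMSO 24 h replicate 2 or 4 or G-1 1 µM 24 h replicate 1 or 2. Its dimmer probe was lower at both durations, with -0.38 and -0.63.

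Of the 9 members of ER-associated degradation, which extracts misfolded proteins for the proteasome, 5 were higher and 1 lower at 72 h (35.3% and 30.9% of all genes), and 1 higher at 24 h (20%). With the 50th percentile 2 were higher and 1 lower at 72 h, and with quantile normalization or normexp 0 were higher and 1 lower at 24 h. DERL1, a derlin of the extraction channel, read 2.21, 2.35, 2.22 and 2.24 with DMSO at 72 h and 3.27, 2.93, 3.24 and 3.11 with G-1 1 µM. The groups stood 0.88 ± 0.10 apart, or 1.84-fold (adjusted p = 1.27e-07). At 24 h it read 2.25, 2.48, 2.29 and 2.43 against 2.52, 2.70, 2.72 and 2.52, without overlap and just short of the threshold (0.25, adjusted p = 0.0528). DERL2 rose by 0.29 ± 0.06 at 72 h, a call lost with the 50th percentile (adjusted p = 0.0652). DERL3 fell: it read 2.77, 2.59, 2.92 and 2.56 with DMSO and 2.23, 2.29, 2.29 and 2.26 with G-1 1 µM (-0.45 ± 0.09, adjusted p = 0.000192). A second probe of the same DERL3 transcript was not above background on any array and was not tested. On the tested probes, the 3 derlins thus did not move together.

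HERPUD1, a membrane adaptor of the complex and a sensitive UPR target, read 6.51, 6.90, 6.47 and 6.86 with DMSO at 72 h and 7.14, 7.12, 7.12 and 7.0 with G-1 1 µM, with no overlap (0.41 ± 0.11, adjusted p = 0.00208). At 24 h it lay between 6.76 and 7.14 with DMSO and between 6.91 and 7.16 with G-1 1 µM (0.06, adjusted p = 0.686). SYVN1, the ubiquitin ligase HRD1, was higher at both durations. It read 3.57, 3.71, 3.61 and 3.60 against 3.72, 3.85, 3.85 and 3.83 at 24 h (0.19 ± 0.07, adjusted p = 0.039), and rose by 0.30 ± 0.07 at 72 h (adjusted p = 0.000642), where 1 array of each group overlapped. The 24 h call was lost with quantile normalization, the 50th percentile and the normexp background correction, and without DMSO 24 h replicate 1, 3 or 4 or G-1 1 µM 24 h replicate 2, 3 or 4. The 72 h call of SYVN1 was lost with the 50th percentile (adjusted p = 0.121). EDEM1, which marks mannose-trimmed proteins for disposal, was -0.25 at 24 h (adjusted p = 0.208) and 0.49 ± 0.15 at 72 h (adjusted p = 0.00623), while EDEM2, EDEM3 and SEL1L were called at neither duration. A second SEL1L probe was lower at both durations, with -0.47 and -0.40. The EDEM1 call at 72 h was lost with the 50th percentile (adjusted p = 0.0589).

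Of the sensors, the ATF6 transcript was higher at 72 h, while those of IRE1 and PERK were not called against DMSO. ATF6 read 4.11, 4.10, 4.13 and 4.06 with DMSO at 72 h, 4.03, 4.11, 4.06 and 4.00 with G-1 IC50, and 4.54, 4.45, 4.42 and 4.43 with G-1 1 µM. The difference of 0.36 ± 0.06 (adjusted p = 1.33e-05) came with a fall of DMSO itself between 24 h and 72 h, by 0.21 on the log2 scale (adjusted p = 0.0454). ATF6 was the 1 member called between the DMSO groups, where 3.29% of all genes were, and that call was lost without DMSO 24 h replicate 2, 3 or 4 or any 1 of the 4 DMSO 72 h arrays. At 24 h it read 4.23, 4.45, 4.25 and 4.32 with DMSO and 4.47, 4.43, 4.35 and 4.35 with G-1 1 µM.

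XBP1 read 4.79, 4.90, 4.60 and 4.84 with DMSO at 72 h and 5.32, 5.24, 5.21 and 5.19 with G-1 1 µM (0.46 ± 0.07, adjusted p = 2.2e-05), with no overlap. At 24 h it read 4.98, 4.89, 4.95 and 4.95 against 5.01, 5.12, 5.17 and 4.97 (0.13, adjusted p = 0.204). ERN1 read 1.04, 1.22, 0.97 and 1.30 with DMSO at 72 h and 1.20, 0.96, 1.05 and 1.08 with G-1 1 µM. The groups overlapped, and its differences of -0.18 at 24 h and -0.06 at 72 h were within the spread. EIF2AK3 was dim and variable: it read -1.65, -0.75, -1.50 and -1.56 with DMSO at 24 h and -1.99, -1.99, -1.67 and -1.74 with G-1 1 µM, without overlap (-0.48 ± 0.22, adjusted p = 0.0971), and -0.97, -1.43, -1.28 and -1.66 against -1.36, -2.33, -1.82 and -1.64 at 72 h (-0.45, adjusted p = 0.075). Against G-1 IC50 it was lower at both durations, with -0.69 ± 0.22 (adjusted p = 0.0228) and -0.71 ± 0.22 (adjusted p = 0.00723). Against DMSO at 72 h it was called lower without DMSO replicate 4 (adjusted p = 0.043) or without G-1 1 µM replicate 1 (adjusted p = 0.0276). CREB3L2, an ATF6-like factor of secretory cells, rose by 0.23 ± 0.10 at 72 h (adjusted p = 0.0403), and by 0.73 on a dimmer probe. The call on the brighter probe was lost with the other scalings and without any 1 of the 4 DMSO 72 h arrays or G-1 1 µM 72 h replicate 1, 2 or 3.

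The translocon, through which new proteins enter the ER, rose at its central subunit. SEC61A1 read 4.64, 4.53, 4.78 and 4.76 with DMSO at 24 h and 5.01, 5.00, 5.11 and 5.15 with G-1 1 µM (0.39 ± 0.08, adjusted p = 0.00104). At 72 h it read 4.57, 4.68, 4.66 and 4.93 against 5.18, 5.10, 5.26 and 5.16 (0.47 ± 0.08, adjusted p = 2.58e-05). The groups did not overlap at either duration. SEC61B was at the threshold at 72 h (0.17, adjusted p = 0.05), and its call was lost with every other scaling and without DMSO 72 h replicate 1, 2 or 3 or G-1 1 µM 72 h replicate 1, 3 or 4. SSR1, of the translocon-associated complex, was lower at 24 h (-0.17 ± 0.06, adjusted p = 0.0443), although another of its probes was higher by 0.70 at 72 h. The SSR1 call was lost with the 50th percentile and without DMSO 24 h replicate 1, 2 or 3 or G-1 1 µM 24 h replicate 2, 3 or 4. SEC24D, a cargo adaptor of the COPII coat that buds from the ER, read 2.24, 2.25, 2.06 and 1.89 with DMSO at 72 h and 3.04, 2.53, 2.78 and 2.75 with G-1 1 µM (0.66 ± 0.11, adjusted p = 1.86e-05).

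The members that hold an ERSE or an ERSE-II can be set beside these changes. Of the 8 with an ERSE, 4 were lower at 72 h (HSPA5, HSP90B1, CALR and CRELD2), 2 were higher (PDIA6 and XBP1), and CANX and ERO1B were not called. All 3 with an ERSE-II (HYOU1, HERPUD1 and SDF2L1) were higher, between 0.28 and 0.55. Of the 20 with neither element, 10 were higher and 0 lower. Among all genes, 35.3% were called higher and 30.9% lower at 72 h. The split of all 35 members also depended on the scaling, with 9 higher and 6 lower with the 50th percentile. These counts are a description of few genes, and whether the elements bear on the changes was not tested.

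**Figure D3:**
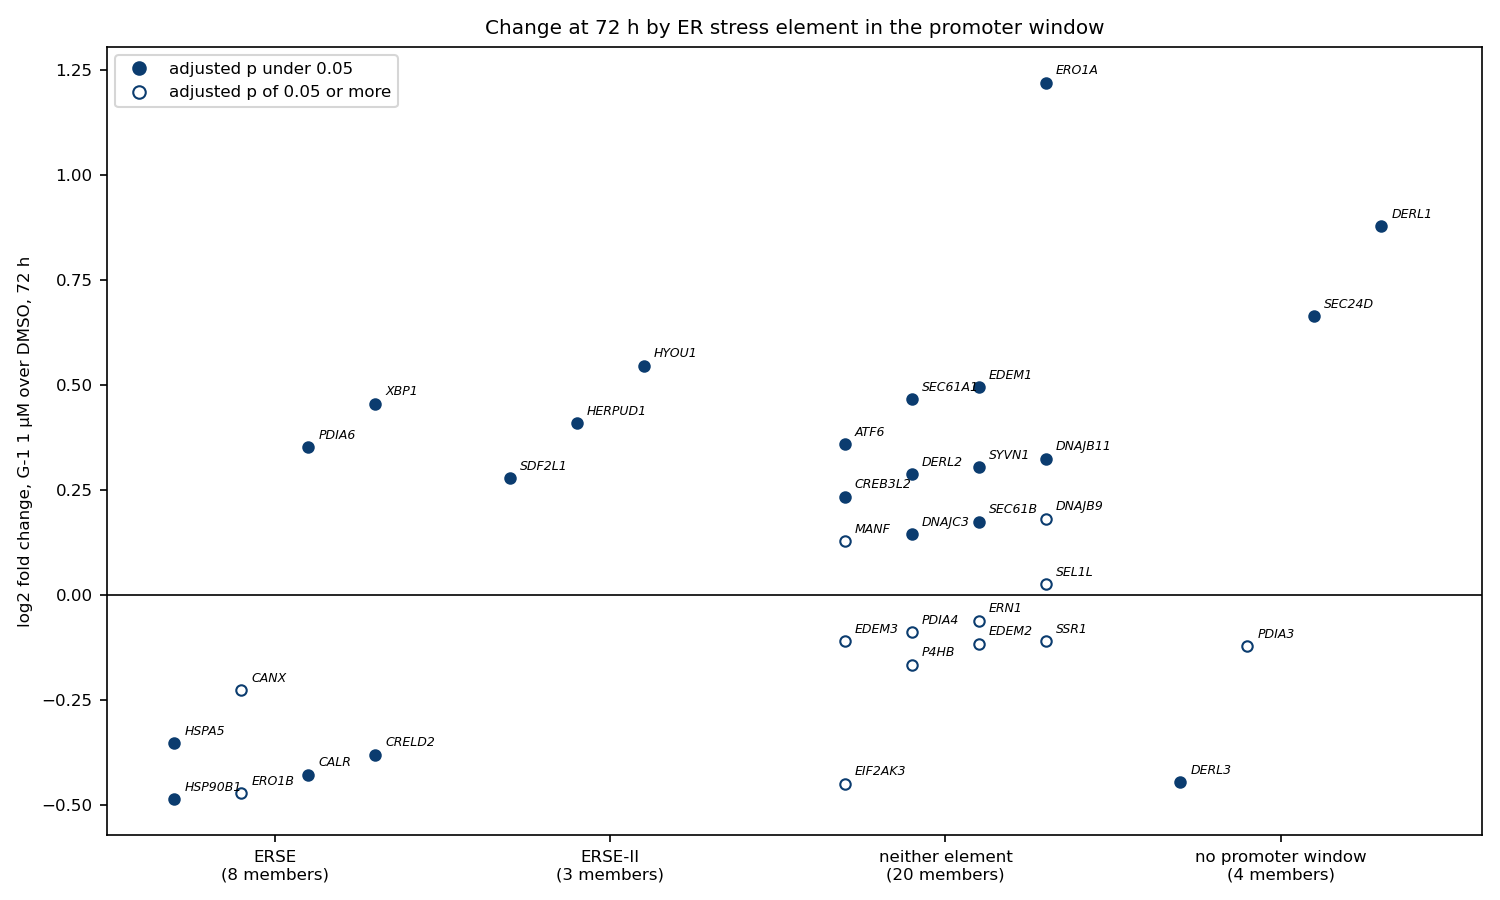
Log2 fold change at G-1 1 µM over DMSO at 72 h for the 35 members, by the element in their RefSeq promoter window; horizontal positions within a class only separate the points. Filled points had an adjusted p under 0.05. Filled points below 0 stand in the ERSE class (4) and the class without a window (1, DERL3), and the 3 ERSE-II members all lie above 0.

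Whether the effect of G-1 1 µM itself changed with duration was tested by subtracting the 24 h effect from the 72 h effect. It was called for 13 members, 11 above 0 and 2 below, where 16.5% of all genes were above, 17.6% below and 34.1% called in all. ERO1A passed 2-fold, as 6.29% of all genes did. The largest differences were 1.06 ± 0.20 for ERO1A (adjusted p = 0.000543), 0.74 ± 0.21 for EDEM1 (adjusted p = 0.00999), 0.63 ± 0.14 for DERL1 (adjusted p = 0.00159) and 0.51 ± 0.15 for SEC24D (adjusted p = 0.0137). For MANF the difference was 0.46 ± 0.10 (adjusted p = 0.000973), between a lower level at 24 h and none called at 72 h. With the 50th percentile 4 of the 13 calls were kept, those of ERO1A, EDEM1, DERL1 and MANF, and that of SEC24D was lost. That scaling called 21.1% of all genes in this difference. With slide as a fixed block all 13 were kept. DERL3 and CRELD2 were the members below 0, at -0.37 ± 0.13 and -0.28 ± 0.10, and both calls were lost with the 50th percentile and the normexp background correction. Single libraries also ended them, for DERL3 DMSO 24 h replicate 1 or 3, DMSO 72 h replicate 1 or 3, G-1 1 µM 24 h replicate 3 or 4 and G-1 1 µM 72 h replicate 1, and for CRELD2 DMSO 24 h replicate 2, DMSO 72 h replicate 2 or 4, G-1 1 µM 24 h replicate 1 or 3 and G-1 1 µM 72 h replicate 1 or 3. For HSPA5 the difference was 0.07 ± 0.12 and for HSP90B1 -0.08 ± 0.10, neither called. For G-1 IC50, 0 members were called (0.014% of all genes) and 7 had an unadjusted p under 0.05 (601 of all 14235 genes), MANF among them at 0.44 ± 0.10 (adjusted p = 0.195).

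**Figure D4:**
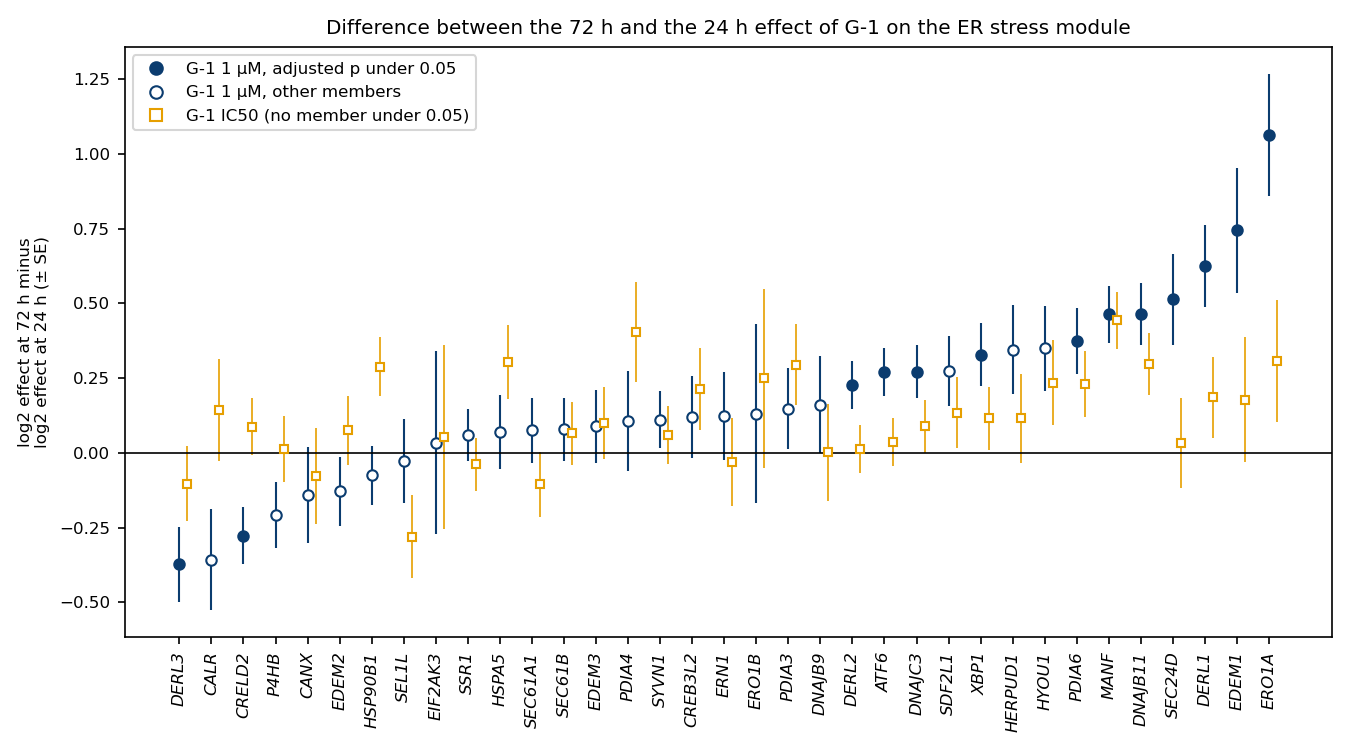
The log2 effect at 72 h minus that at 24 h (± SE, limma) for each member, for G-1 1 µM (circles) and G-1 IC50 (squares), in the order of the G-1 1 µM values. Filled circles had an adjusted p under 0.05: 11 lie above 0, up to ERO1A at 1.06, and 2 below.

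The doses were also compared directly, with the slide again inseparable from the dose. At 24 h, 5 members were called between G-1 1 µM and G-1 IC50 (26.6% of all genes, 18.3% higher and 8.29% lower): ATF6, XBP1 and SEC61A1 were higher at 1 µM, and EIF2AK3 and SSR1 lower. This split turned with the scaling, to 1 higher and 4 lower with quantile normalization, 0 and 6 with the 50th percentile and 1 and 6 with normexp. At 72 h 22 were called, 16 higher and 6 lower (65.1% of all genes, 35.9% higher and 29.3% lower), with ERO1A at 0.93 ± 0.14 (adjusted p = 1.33e-05) and EIF2AK3 at -0.71 at the ends. There the split was 12 and 12 with quantile normalization, 6 and 10 with the 50th percentile and 8 and 8 with normexp. At 24 h with G-1 IC50, 8 of the 9 luminal chaperones and cofactors had a log2 fold change below 0 against DMSO, with a median of -0.17 and none called, where 7932 of all 14235 genes were below 0. At 72 h, 8 of 9 were above 0, with a median of 0.06, as were 6320 of all genes.

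Beyond the module, 6 lists of further ER genes and 1 of the PERK arm were examined. Of 13 tested members of the PERK-ATF4-CHOP list, 8 were higher and 0 lower at 24 h (median log2 fold change 0.38), beside 20% and 10.5% of all genes. At 72 h 7 were higher and 1 lower, with a median of 0.69, beside 35.3% and 30.9%, so that 61.5% of the list and 66.2% of all genes were called. These counts were 6 and 0 at 24 h with the 50th percentile or normexp, and 7 and 1 at 72 h with every scaling. ATF4, the factor whose translation PERK favours and which other kinases of the integrated stress response also reach, read 7.52, 7.44, 7.50 and 7.45 with DMSO at 24 h and 8.25, 8.10, 8.20 and 8.01 with G-1 1 µM (0.66 ± 0.08, adjusted p = 1.02e-05), and rose by 0.69 ± 0.08 at 72 h. DDIT3, which encodes CHOP, read 2.57, 2.70, 2.56 and 2.80 with DMSO at 72 h and 3.94, 4.00, 3.87 and 3.76 with G-1 1 µM, a rise of 1.23 ± 0.09 (adjusted p = 3.37e-10) against 0.44 ± 0.09 at 24 h. It is also among the genes that the study lists from these arrays. CHAC1 and TRIB3, targets of ATF4 and CHOP, rose by 1.70 ± 0.17 and 1.31 ± 0.11 at 72 h, and ATF3, a further factor of the arm, fell by 0.91 ± 0.14 (adjusted p = 9.08e-06). The PERK transcript itself was not called against DMSO, with -0.48 at 24 h and -0.45 at 72 h.

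Genes of targeting, translocation and signal peptide removal rose at 72 h in 16 of 22 cases, with 1 lower (15 and 2 with quantile normalization, 14 and 2 with the 50th percentile) and a median of 0.39. Among all genes, 35.3% were called higher and 30.9% lower at 72 h (66.2% in all). SEC61A2, a second SEC61 alpha subunit, rose by 0.90 ± 0.16 and SSR3 by 0.72 ± 0.09, while SRP14, of the signal recognition particle, fell by 0.28 on the log2 scale. At 24 h 4 were higher and 0 lower (20% and 10.5% of all genes), or 1 and 2 with normexp. Of 29 genes of COPII transport and retrieval, 15 were higher and 4 lower at 72 h, or 9 and 5 with the 50th percentile. BET1 and SAR1A rose by 0.65 each, TMED10 and ERGIC1 were lower (-0.76 and -0.40), and all 3 KDEL receptors, which return escaped chaperones, were higher, KDELR2 by 0.54 ± 0.11, KDELR1 by 0.30 ± 0.07 and KDELR3 by 0.28 ± 0.11.

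The remaining ER lists were more evenly split at 72 h, where 35.3% of all genes were called higher and 30.9% lower. For N-glycosylation and glucose trimming, 6 of 17 were higher and 5 lower (2 and 4 with the 50th percentile), led by RPN1 (0.64) and OSTC (0.54) of the oligosaccharyltransferase and by UGGT1 (-0.54), the glucosyltransferase that senses misfolded glycoproteins, and OST4 (-0.28). The further genes of degradation gave 10 higher and 6 lower of 25, or 4 and 7 with the 50th percentile, with SELENOS (0.70) and AUP1 (0.65) highest and TMEM129 (-1.51), a ubiquitin ligase, low. FAM8A1, a cofactor of HRD1, had no array well above background with G-1 1 µM and was at least 1.91-fold lower at 72 h (adjusted p = 0.000254) and at least 1.55-fold lower at 24 h. Of 31 further folding enzymes, 10 were higher and 10 lower, with TXNDC11 (0.81) and TXNDC12 (0.65) highest and the isomerase PDIA5 (-1.16) low. RCN3 was at least 1.13-fold lower at 72 h, with 3 of 4 DMSO arrays and no G-1 1 µM array above background.

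Among the further sensors and regulators, 3 of 11 were higher and 4 lower at 72 h (35.3% and 30.9% of all genes). ATF6B, the paralogue of ATF6, read 0.44, 0.44, -0.09 and 0.22 with DMSO at 72 h and -1.15, -1.25, -0.92 and -1.20 with G-1 1 µM (-1.38 ± 0.15, adjusted p = 1.25e-07), and fell by 0.60 ± 0.15 at 24 h. The ATF6 and ATF6B transcripts thus stood on opposite sides of DMSO at 72 h. CREB3 was highest of the list at 0.34 and CREB3L1 was lower (-0.61). The 6 ER lists together gave 60 higher and 30 lower of 135 tested genes at 72 h, or 66.7% called, near the 66.2% of all genes. This split was not counted for the lists together under the other scalings, and within several lists it moved with the scaling, as given above.

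**Figure D5:**
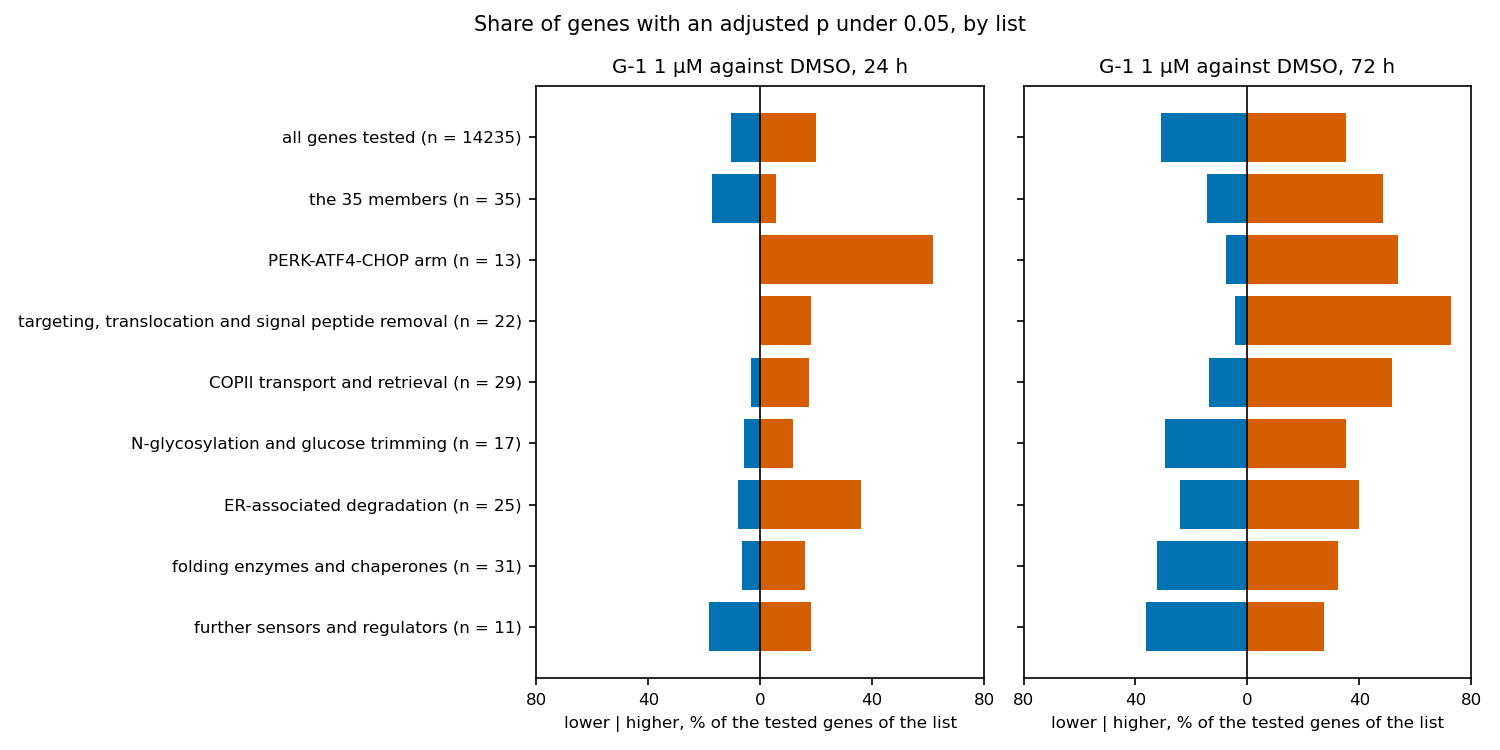
Share of tested genes called higher (orange, to the right) and lower (blue, to the left) with G-1 1 µM against DMSO, in a panel for each duration, for all genes, the 35 members and 7 other lists, with the number tested in brackets. The PERK-ATF4-CHOP list has 8 of 13 higher and 0 lower at 24 h, and the targeting and translocation list 16 of 22 higher and 1 lower at 72 h.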

How the data were processed

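Per the labels and the file headers, the authors hybridised RNA of 24 cultures (6 groups of 4) to 1-colour Agilent arrays on 3 slides of 8, and deposited the scanner output of Feature Extraction, given as version 10.7.3.1 in the labels and 12.1.1.1 in the file headers. The deposited intensity (processed signal, background-subtracted) was used as log2 of the signal minus the 75th percentile of each array. Outlier spots were removed, spots of 1 probe were averaged, and 83 of 58201 probes without a value on every array were left out. A log2 table that the authors deposited matched these values after centring each probe on its median (median absolute difference 0.00142, column medians -0.35 to 0.56), and served as an alternative. Columns of comparisons made by the authors were not used.

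The test covered the 22970 probes for which some group had all 4 arrays well above background. All 6 groups entered 1 fit in limma 3.58.1 (R 4.3.3), with Benjamini-Hochberg adjustment over all tested probes and no block, and a call was an adjusted p under 0.05. An interaction gave the difference between durations. Single values were also compared by the exact two-sided permutation test, which cannot go below p = 0.0286. The fit was tested on simulated data. Gene symbols came from RefSeq through the probe's transcript accession, and promoter windows from RefSeq (GRCh38.p14). No protein sequence was used here. The number of arrays limits the precision.

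Groups follow the sample titles, because another label gives 72 h for the G-1 IC50 arrays titled 24 h and the reverse for G-1 1 µM titled 72 h. The members and the gene lists were chosen with earlier results of these data known. Values per array were given, by rule, for the largest called changes in each direction at 24 h and 72 h and for BiP, GRP94, the sensors and 3 of their targets. From the other lists the rule named at most the 2 highest and 2 lowest called genes at 72 h, and ATF4, DDIT3, ATF6B and the KDEL receptors. MANF and CRELD2 were given per array after their values were seen. Alternatives were quantile normalization, the 50th percentile, normexp, other filters on dim probes, the deposited table, an intensity trend, replicate number or slide as a block, only the arrays compared, any probe of a gene, the methods' t-test with a 2-fold threshold, and leaving out each replicate.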

Additional observations from a re-analysis of the deposited data

Results flagged for a closer look

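Among 210 groups of 4 arrays, 12 held 1 array whose gap to the nearest of the others exceeded Dixon's critical share of the range, and chance gives about 1 in 20. In G-1 IC50 24 h these were CALR in replicate 2, at 8.57 with the nearest at 9.09, and DERL2 in replicate 1, at 5.25. In G-1 IC50 72 h they were CRELD2 in replicate 2 (5.88), EIF2AK3 in replicate 4 (-0.52, nearest -1.18), PDIA4 in replicate 3 (6.06), PDIA6 in replicate 3 (5.04) and XBP1 in replicate 2 (4.99). In the DMSO groups they were EDEM1 in replicate 2 at 24 h (0.52, nearest 0.00), SEL1L in replicate 3 at 24 h (0.53) and PDIA3 in replicate 3 at 72 h (6.22). With G-1 1 µM they were PDIA3 in replicate 2 at 24 h (5.84, nearest 6.18) and EDEM3 in replicate 2 at 72 h (3.29).

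The effect of G-1 1 µM differed between 72 h and 24 h by the interaction test for 13 members. The log2 difference was 1.06 for ERO1A, 0.74 for EDEM1, 0.63 for DERL1, 0.51 for SEC24D, 0.47 for DNAJB11, 0.46 for MANF, 0.37 for PDIA6, 0.33 for XBP1, 0.27 for ATF6, 0.27 for DNAJC3 and 0.23 for DERL2. It was -0.28 for CRELD2 and -0.37 for DERL3.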

How the results depend on the processing

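No member called at G-1 1 µM against DMSO, or in the difference between durations, changed sign under the alternatives refitted gene by gene. With the 50th percentile in place of the 75th, 4 members were called at G-1 1 µM 24 h, 4 in its difference between durations and 0 between the DMSO groups. The shares of all genes called fell as well, to 15.3%, 21.1% and 0.681%, from 30.6%, 34.1% and 3.29% in the main fit. The 50th percentile moved the median log2 difference of all genes between G-1 1 µM and G-1 IC50 at 24 h from 0.05 to -0.12. Between the DMSO groups 0 were also called with quantile normalization, normexp, no filter on dim probes or only the arrays compared, and 2 with the replicate block. Of all genes, quantile normalization called 3.84% there, normexp 4.52%, no filter 0.403% and the replicate block 6.48%. Without a filter, 5 were called in the difference between durations, as were 12.6% of all genes. With G-1 IC50 at 24 h, 1 member (MANF) was called with only probes above background on all arrays, with an intensity trend or with slide as a random block. With only the arrays compared, or with slide as a random block, 4 were called at G-1 1 µM 24 h and 2 between the doses at 24 h, where any probe of a gene gave 9. The shares of all genes were not counted for these alternatives. With the methods' t-test over 2-fold, unadjusted or adjusted, and with 2-fold in addition to the limma threshold, 0 were called at G-1 1 µM 24 h, between the doses at 24 h or 72 h and between the DMSO groups, and 1 (ERO1A) at G-1 1 µM 72 h. ERO1A was also the 1 member over 2-fold in the difference between durations, for which no t-test was run.

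Leaving out each replicate gave 5 to 6 called members at G-1 1 µM 24 h, with 5 without DMSO 24 h replicate 3 or 4 or G-1 1 µM 24 h replicate 2. It gave 19 to 23 at 72 h and 10 to 13 for the difference. Between the doses at 24 h it gave 1 to 4, with 1 without G-1 1 µM replicate 2 or G-1 IC50 replicate 1, 2 without G-1 1 µM replicate 1 or G-1 IC50 replicate 4, and 3 without replicate 3 of either. Between the DMSO groups it gave 0 to 1, and with G-1 IC50 it gave 0. The shares of all genes were not counted with a replicate left out. Apart from the 2-fold thresholds and the choice of probe, 4 of the 8 calls at 24 h held under all alternatives (HSPA5, HSP90B1 and MANF lower, SEC61A1 higher), as did 14 of 22 at 72 h (9 higher and 5 lower) and 4 of 13 in the difference (MANF, ERO1A, EDEM1 and DERL1). The 72 h calls that did not hold were those of DNAJB11, DNAJC3, PDIA6, SYVN1, EDEM1, DERL2, CREB3L2 and SEC61B.

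Same-numbered samples deviated together more often than other pairs, though not in every pair (median correlation 0.12, 33 of 60 pairs over 0.1, beside -0.04 and 38 of 180). The main fit did not take the numbers as a pairing, and a link between same-numbered samples remains possible. With the replicate number as a block 9 members were called at G-1 1 µM 24 h, 22 at 72 h and 15 in the difference. The shares of all genes were 35.1%, 68.4% and 37.9%, beside 30.6%, 66.2% and 34.1% in the main fit. Signal over background limits ERO1B and EIF2AK3, the dimmest members described.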

Other observations

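ER enzymes that modify collagen chains were split at G-1 1 µM. Of 11 tested, 1 was higher and 0 lower than DMSO at 24 h, and 4 were higher and 3 lower at 72 h, beside 20% and 10.5% of all genes at 24 h and 35.3% and 30.9% at 72 h. At 24 h the counts were 0 and 2 with quantile normalization and 0 and 1 with the 50th percentile or normexp. PLOD2, a lysyl hydroxylase, and P4HA2, a prolyl hydroxylase subunit, rose by 0.53 ± 0.16 and 0.45 ± 0.16 on the log2 scale at 72 h, and P3H4, a partner of the collagen hydroxylases, fell by 0.61 ± 0.08 (adjusted p = 1.3e-06).

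Of 13 tested genes known as hypoxia-inducible, 5 were higher and 0 lower at 24 h and 8 were higher and 0 lower at 72 h, with medians of 0.37 and 0.54. The shares called, 38.5% and 61.5%, stand beside 30.6% and 66.2% of all genes. With DMSO alone the median of the list was 0.33 at 72 h over 24 h, with 12 of 13 above 0 and 0 called. With the 50th percentile these counts were 2 and 6, still with 0 lower. ADM, which encodes adrenomedullin, rose by 0.67 ± 0.17 at 24 h and 1.32 ± 0.17 at 72 h, and VEGFA, an angiogenic growth factor, by 0.68 ± 0.24 and 0.89 ± 0.24. ERO1A is itself known as hypoxia-inducible and rose by 1.22 at 72 h.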
